A study of Sus scrofa with 13 samples.

Results

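The genes described here are RETN, which encodes the secreted protein resistin, and neutrophil-associated genes of the pig liver that could show whether RETN followed the neutrophil. They were chosen by name, as S100A8, S100A9, S100A12, CSF3R, MMP9, LCN2, ITGB2 and TREM1 beside RETN, and were compared across 4 groups and in each liver. Of the 9 names, 8 had a row in the count table of 35670 genes and all 8 passed the filter on low counts, as did 16481 genes in all. S100A9 had no row under that symbol and was not analysed here.

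Neutrophils are short-lived white blood cells that leave the blood for injured tissue, and in hepatic ischemia-reperfusion injury they collect in the sinusoids soon after blood flow returns. They carry ready-made granules of proteases and antimicrobial proteins, and a large share of their cytosolic protein is S100A8 and S100A9, which together form calprotectin. Resistin is known from rodents as a hormone of fat cells, while in humans it is made mainly by myeloid cells, neutrophils and monocytes included.

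Bulk RNA was sequenced from 13 liver samples of female Yorkshire pigs. Baseline is represented by 2 samples, replicates 1a and 2, taken before ischemia and without cells. The ischemic controls are 3 livers with 45 min of total vascular exclusion and 6 h of reperfusion that received no cells. Another 4 livers make up the arterial infusion group and 4 the portal infusion group. They had the same vascular exclusion, were given 3 M (mega) human BM-MSCs, mesenchymal stromal cells expanded from bone marrow, per kg body weight early in reperfusion, by way of the hepatic artery and of the portal vein respectively, and were sampled at 6 h like the controls. The infused cells are human and the recipients are pigs with their own immune system. The labels do not say whether the baseline samples came from pigs that were also sampled at 6 h, nor the age of the animals.

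The total count on genes lay between 18975413 and 35949178 per library, and between 13581 and 20282 genes had at least 1 read. An earlier analysis of these data had found that ischemic control 2, arterial infusion 1, portal infusion 1 and portal infusion 4 stood apart from the others on the first principal component, which here held 62.0% of the variance of the 500 most variable genes over the 11 livers at 6 h. These 4 libraries had 13581 to 16993 genes detected, against 15831 to 20282 in the other 7 livers at 6 h and 18949 to 19711 at baseline. RETN was correlated with that component (Pearson r = 0.77, permutation p = 0.0061, Spearman rho = 0.74, p = 0.0131, 11 livers, r = 0.71 without the 2 livers farthest from its median), so each result below is also given without these libraries where that changes it. S100A8 was correlated with it as well (r = 0.74, permutation p = 0.0098, rho = 0.78, p = 0.0065). The members were not excluded from the 500 genes, so any member among them helped to form the component. The r was 0.60 for S100A12, 0.60 for CSF3R, 0.59 for TREM1 and 0.54 for MMP9 (permutation p = 0.0555, 0.0525, 0.0604 and 0.0854). It was 0.18 for LCN2 and -0.23 for ITGB2. With the total count per library S100A8 had r = -0.63 (permutation p = 0.0421) and RETN r = -0.54 (p = 0.0913), and only ITGB2 was above 0, at 0.21. With the percent of counts on mitochondrial genes RETN had rho = -0.70 (permutation p = 0.0203) and S100A8 rho = -0.40 (p = 0.225). The part of library depth in the relation of RETN with S100A8 was not tested. ALB, the albumin gene that marks hepatocytes, had between 468110 and 2126050 normalized counts.

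The genes lie on 7 chromosomes of Sscrofa11.1, with coordinates from RefSeq matched by gene. RETN spans chromosome 2 from 71484164 to 71485577. S100A8 (chromosome 4, 96209670 to 96210603) and S100A12 (chromosome 4, 96225691 to 96227030) belong to the same S100 cluster. CSF3R lies on chromosome 6 (92550159 to 92565798), MMP9 on chromosome 17 (48179690 to 48186782), LCN2 on chromosome 1 (268609975 to 268614651), ITGB2 on chromosome 13 (207514281 to 207544108) and TREM1 on chromosome 7 (36510253 to 36531796). The libraries were non-directional, so a read does not tell which strand it came from, and reads of overlapping antisense genes cannot be told apart.

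RETN was the most variable of these genes. Its normalized count, the read count divided by the DESeq2 size factor of the library, was 11.6 and 16.9 in baseline 1a and 2. It was 78.3, 1352 and 212 in ischemic controls 1 to 3, so that all 3 controls lay above both baseline samples. After arterial infusion it was 923, 20.4, 13.8 and 75.4 in livers 1 to 4. After portal infusion it was 345, 72.9, 12.04 and 65.0. The highest liver at 6 h stood 112 times above the lowest, and both infusion groups reached from the baseline level up into the range of the controls. The lowest value rested on 12 reads and the highest on 772, while arterial infusion 1 had 1035 reads at a larger library size.

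S100A8 and S100A12 encode calcium-binding alarmins of neutrophils and monocytes. The normalized count of S100A8 was 158 and 161 at baseline, then 365, 5752 and 973 in ischemic controls 1 to 3. It was 4216, 297, 135 and 1246 in arterial infusion livers 1 to 4 and 1219.6, 898, 145 and 1134 in portal infusion livers 1 to 4. The highest and the second highest liver at 6 h were the same as for RETN, namely ischemic control 2 and arterial infusion 1, and the 3 lowest were also the same, namely arterial infusion 2 and 3 and portal infusion 3. S100A12, whose protein signals through the receptor AGER, read 209.8 and 196 at baseline, then 502, 4912 and 1499.6 in the controls. After arterial infusion it read 2836.5, 400.2, 139 and 2049.6, and after portal infusion 1012, 1028, 252 and 791. For both S100 genes every control exceeded both baseline samples, while the infused livers spanned the baseline and the control range.

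MMP9 encodes gelatinase B, a matrix-degrading protease stored in neutrophil granules. It read 57.9 and 36.9 at baseline, 47.5, 573 and 277 in the controls, 401, 51.1, 19.5 and 566 after arterial infusion, and 328, 276, 55.2 and 78.5 after portal infusion. Ischemic control 1 lay inside the baseline range for MMP9, although its RETN and S100A8 counts were above baseline. CSF3R encodes the receptor of granulocyte colony-stimulating factor, the growth factor of the neutrophil lineage. It read 259 and 347 at baseline, 218, 767 and 872 in the controls, 892, 249.8, 228 and 1219 after arterial infusion, and 988, 299.8, 158 and 234 after portal infusion. TREM1, an activating receptor on neutrophils and monocytes, was the lowest in count, with 16.2 and 15.8 at baseline, 19.8, 96.3 and 103 in the controls, 141, 5.57, 14.6 and 116 after arterial infusion, and 62.9, 49.5, 13.04 and 47.8 after portal infusion. The highest liver for CSF3R was arterial infusion 4, where RETN was more than 10 times lower than in arterial infusion 1.

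LCN2 and ITGB2 followed other livers. LCN2 encodes lipocalin 2, an iron-sequestering granule protein that hepatocytes also secrete in the acute phase. It read 3346 and 1447 at baseline, 2944, 3711 and 1554 in the controls, 3639, 1672, 1777 and 2650.1 after arterial infusion, and 3382, 5959, 7105 and 8671 after portal infusion, so that the 3 highest livers were all of the portal group. ITGB2 encodes the beta2 integrin chain CD18, which neutrophils share with macrophages and lymphocytes. It read 1014 and 689 at baseline, 1312, 777.5 and 2275 in the controls, 917, 699, 647 and 1430.3 after arterial infusion, and 566, 618, 776.5 and 698 after portal infusion. From the lowest to the highest liver at 6 h LCN2 varied 5.58-fold and ITGB2 4.02-fold.

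**Figure D1:**
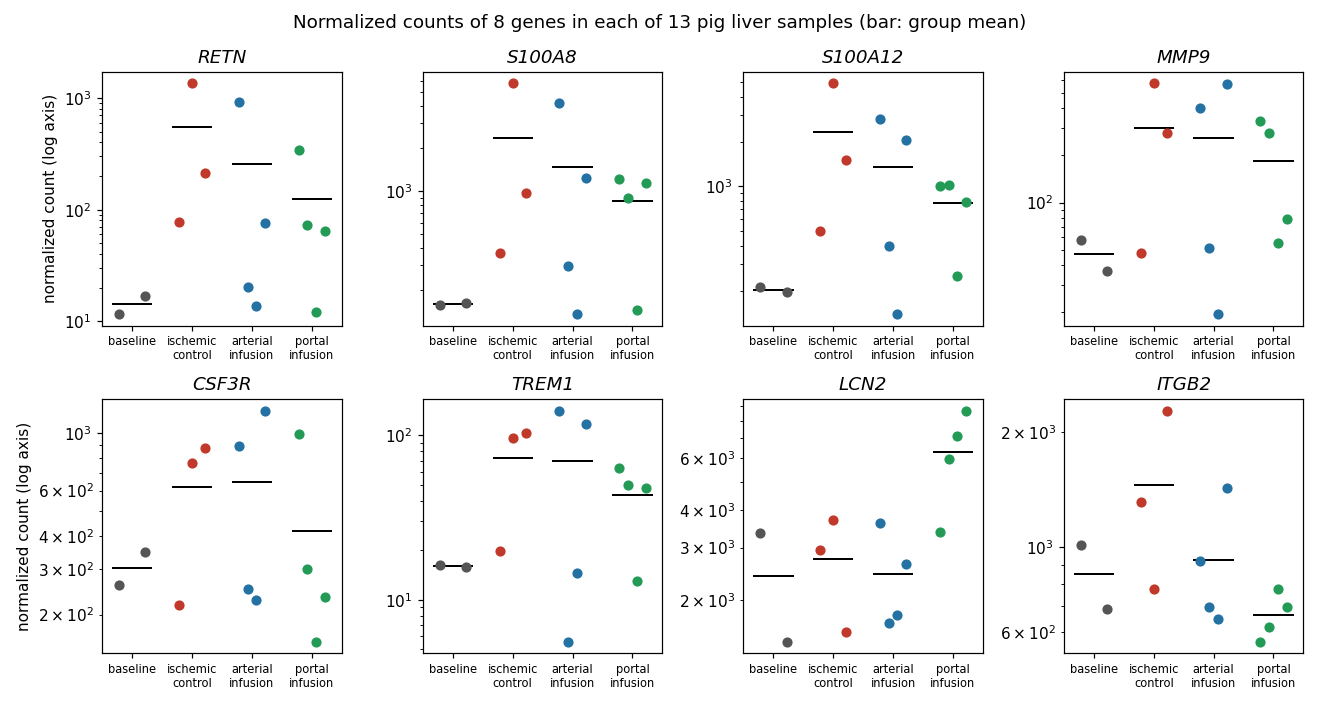
Normalized counts (vertical log axes, 1 panel per gene) in each of 13 liver samples by group, with the group mean as a bar. RETN, S100A8 and S100A12 had all 3 ischemic controls above both baseline samples, the infused livers spread over both ranges, and LCN2 was highest in 3 portal infusion livers.

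The 3 ischemic controls were compared with the 2 baseline samples, which were taken before ischemia. No group had the surgery and the 6 h without ischemia. Ischemia and reperfusion therefore cannot be told apart from the surgery and the time that passed. The largest differences among the 8 genes were those of RETN, at a log2 fold change of 5.20 (SE 2.00), S100A8, at 3.83 (SE 1.44), and S100A12, at 3.45 (SE 1.18). MMP9 followed at 2.60 (SE 1.32), TREM1 at 2.16 (SE 1.28), CSF3R at 1.01 (SE 0.85), ITGB2 at 0.78 (SE 0.50) and LCN2 at 0.17 (SE 0.55). All 8 were on the higher side, with a median of 2.38, against a median of 0.00 over all 16481 genes, of which 50.2% were above 0. For 4 of the 8, RETN, S100A8, S100A12 and TREM1, every control exceeded every baseline sample, which held for 14.8% of all genes.

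None of the 8 passed edgeR's quasi-likelihood test at an adjusted p of 0.05, where 0% of all genes passed and the adjusted p was 0.978 for 7 of the members and 0.989 for LCN2. At an unadjusted edgeR p under 0.05, RETN, S100A8 and S100A12 were higher in controls, 3 of 8 members, where 4.37% of all genes passed and 3.16% on the higher side. Their edgeR p-values were 0.0203, 0.0183 and 0.0106, while exact permutation of the 5 samples gave a two-sided p = 0.2 for each, with 0.1 the smallest possible. DESeq2 over the 5 libraries of these groups called the same 3 genes, at adjusted p-values of 2.64e-05, 0.00189 and 0.00171, and called 1.02% of its genes. Ischemic control 2 decided much of the size. With that liver left out RETN stood at 3.38 (SE 1.83), S100A8 at 2.09 (SE 1.26) and S100A12 at 2.33 (SE 1.09), and none of the 3 kept an unadjusted edgeR p under 0.05. DESeq2 still called these 3 genes without it, at 3.37, 2.07 and 2.31 and adjusted p-values of 0.000483, 0.00943 and 0.00265.

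The summed level of 14 monocyte and macrophage markers was 66133 to 146143 normalized counts in the controls and 43434 to 59427 at baseline, without overlap. CD14 and the C1Q genes made up most of that sum. Of the 14 markers 10 were on the higher side and 4 on the lower. Of these, 3 and 1 had an unadjusted edgeR p under 0.05, against 4.37% of all genes, 3.16% on the higher side. For 4 markers every control exceeded both baseline samples, which held for 14.8% of all genes. For 1, MRC1, the mannose receptor gene of macrophages, every control was below both. It read 1978, 1578 and 976 normalized counts against 3169 and 3459. The share of all genes with every control below both is not given here. The summed erythroid markers, mostly HBB, the beta chain of hemoglobin, reached from 1372 to 29058 in the controls, highest in ischemic control 2, and from 997 to 1846 at baseline. The part of these cells in the differences was not tested. Fewer cells of a type and less RNA per cell cannot be told apart in a bulk sample. The summed level of 8 fat cell markers was 165 to 291 normalized counts in the controls, 243 to 300.1 at baseline, 219 to 279 after arterial and 240.5 to 639 after portal infusion. Of these, the hormone genes ADIPOQ and LEP had at most 4.34 and 3.16 normalized counts in any library and were at 0 in 8 and 10 of the 13, ischemic control 2 and arterial infusion 1 among them. The lipid droplet genes PLIN1, PLIN4 and CIDEC reached 74.4, 413 and 136 normalized counts, PLIN4 in portal infusion 1. MPO, the myeloperoxidase gene that neutrophil precursors transcribe, was at 0 in 9 libraries and at most at 6.29, and the receptor gene CXCR2 had no row.

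Other genes of neutrophil function stood on the higher side in the controls in several groups, but none passed the adjusted test. All 7 tested granule protein genes of 13 listed were higher, with a median log2 fold change of 1.62. The largest were MMP25, a membrane-bound protease of granules, at 2.30 (SE 1.10), PGLYRP1, a peptidoglycan-binding protein, at 1.95 (SE 1.88), and LYZ, lysozyme, at 1.73 (SE 0.86). All 5 tested subunits of the phagocyte NADPH oxidase were higher, with a median of 0.95. Among them NCF1 at 2.49 (SE 0.90) and CYBA at 2.10 (SE 0.89) had an unadjusted edgeR p under 0.05, and NCF4 stood at 0.95 (SE 0.54). NCF1 read 128, 1303 and 390 and CYBA 330, 2311 and 495 normalized counts in ischemic controls 1 to 3. Without ischemic control 2 NCF1 stood at 1.34 (SE 0.81), CYBA at 0.84 (SE 0.78), NCF4 at 0.20 (SE 0.47) and PGLYRP1 at 0.75 (SE 2.02), none with an unadjusted edgeR p under 0.05, and the medians were 1.14 for the granule and 0.84 for the oxidase genes. Of 7 neutrophil surface receptor genes, 3 were higher and 4 lower with a median of -0.15, led by IL1R2, a decoy receptor for interleukin 1, at 1.27 (SE 0.69), and C5AR1, the complement C5a receptor, at 0.95 (SE 0.56), with CD177 at -0.33 (SE 1.96).

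Of 4 tested genes for neutrophil-attracting and granulopoietic cytokines all were higher, with a median of 0.75. They included the chemokine genes CXCL2 at 2.33 (SE 1.61) and CXCL8 at 0.58 (SE 1.40), and CSF3, the ligand of CSF3R, at 0.91 (SE 1.42). Of 6 myeloid transcription factor genes 5 were higher, among them GFI1 at 1.80 (SE 1.18), CEBPB at 1.47 (SE 0.74) and SPI1, which encodes PU.1, at 1.02 (SE 0.46), the last with an unadjusted edgeR p under 0.05. Binding partners and receptors of the proteins were mixed, with 7 of 13 higher and a median of 0.10. TYROBP, the signalling adaptor of TREM1, stood at 1.34 (SE 0.49) with an unadjusted edgeR p under 0.05, AGER at 2.15 (SE 2.08), and SELP, the endothelial and platelet P-selectin, at -1.72 (SE 1.94). Without ischemic control 2 TYROBP stood at 1.05 (SE 0.51) and SPI1 at 0.78 (SE 0.48), both no longer under an unadjusted edgeR p of 0.05. LRP2, the largest fitted difference of that group, had no reads at baseline and a mean of 5.02 normalized counts in the controls, so it is given without a fold.

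The 8 infused livers were compared with the 3 controls. These controls had no infusion at all, so the cells and the infusion procedure cannot be told apart. The labels give the dose but not the human cell content of each sample. RETN averaged 191 ± 315 normalized counts (SD, n = 8) in infused livers and 547 ± 700 (SD, n = 3) in controls, a log2 fold change of -1.62 (SE 1.07) that did not pass the test (adjusted p over 0.999). S100A12 stood at -1.17 (SE 0.71), S100A8 at -1.07 (SE 0.86), MMP9 at -0.45 (SE 0.86), TREM1 at -0.43 (SE 0.85), CSF3R at -0.28 (SE 0.60) and LCN2 at 0.50 (SE 0.42). In all, 7 of 8 were on the lower side with a median of -0.69, against -0.02 over all genes, of which 47.9% were above 0. The differences of RETN, S100A8 and MMP9 rested on ischemic control 2, without which they were 0.22, 0.68 and 0.37.

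ITGB2 differed most clearly from the controls. Its mean was 794 ± 278 (SD, n = 8) in infused livers and 1455 ± 759 (SD, n = 3) in controls. The log2 fold change was -0.93 (SE 0.35), with an unadjusted edgeR p of 0.0184 and an exact permutation p of 0.0364 (two-sided), but an adjusted p over 0.999. It was the 1 member of 8 under an unadjusted p of 0.05, which 2.14% of all genes were (1.41% on the lower side). Without ischemic control 3, the highest liver, it was -0.47 and no longer under an unadjusted p of 0.05, and without the 4 libraries that stood apart it was -1.16. Macrophage markers were also lower in the infused livers, none at an adjusted p under 0.05. The summed monocyte and macrophage markers lay between 47840 and 56601 in the infused livers, all below the lowest control at 66133. Of the 14 markers 12 were on the lower side, 5 of them, CD14, CSF1R, C1QA, C1QB and C1QC, at an unadjusted p under 0.05, and C1QA and C1QC, chains of complement C1q made by macrophages, were below all controls in all 8 infused livers, which held for 0.34% of all genes. PTPRC, the pan-leukocyte gene for CD45, differed by 0.10 (SE 0.54), CD68 by -0.64 (SE 0.49) and CD163 by -0.64 (SE 0.52). Without ischemic control 2, C1QA, C1QB and C1QC kept an unadjusted edgeR p under 0.05, at -0.81 (SE 0.32), -0.89 (SE 0.33) and -0.77 (SE 0.33), while CD14 stood at -0.05 (SE 0.35) and CSF1R at -0.59 (SE 0.32). Among the controls, ischemic control 2 had the highest sum, 146143, of which CD14 made up 77782, and the lowest ITGB2. Ischemic control 3 had the highest ITGB2 and a sum of 74826. Of the 14 markers, CD68, VSIG4, FCGR1A and CCR2 were highest in ischemic control 3, CD163 and MRC1 in ischemic control 1, and the others in ischemic control 2. The part of macrophages in the ITGB2 difference was not tested.

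The routes were compared with the same 3 controls, so their values are not independent of each other. After arterial infusion RETN stood at -1.06 (SE 1.28), S100A8 at -0.66 (SE 1.01), S100A12 at -0.75 (SE 0.84) and CSF3R at 0.06 (SE 0.69), and 0 of 8 members were under an unadjusted p of 0.05, where 1.57% of all genes were. With ischemic control 2 left out the first 3 turned to 0.79, 1.10 and 0.39. After portal infusion RETN stood at -2.19 (SE 1.31), S100A8 at -1.49 (SE 1.01) and S100A12 at -1.58 (SE 0.84), and without that control these stood at -0.35, 0.26 and -0.45. Here 2 of 8 members were under an unadjusted edgeR p of 0.05, against 2.79% of all genes (1.66% lower, 1.13% higher). ITGB2 was lower, at -1.17 (SE 0.41, p = 0.0121), with all 4 portal livers below all 3 controls (exact permutation p = 0.0286, the smallest possible), which held for 2.33% of all genes. That order was narrow, since portal infusion 3 and ischemic control 2 differed by about 1 normalized count, and on log2 CPM with TMM scaling portal infusion 3, at 4.87, lay above ischemic control 2, at 4.76. LCN2 was higher, at 1.18 (SE 0.47, edgeR p = 0.0248, exact permutation p = 0.0857). No adjusted p of these comparisons was under 0.05 for any gene in edgeR.

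Between the routes LCN2 had the smallest p of the 8 members. Its mean was 2435 ± 915 (SD, n = 4) after arterial and 6279 ± 2229 (SD, n = 4) after portal infusion, a log2 fold change of -1.36 (SE 0.43) for arterial against portal, with an unadjusted edgeR p of 0.00674, an adjusted p over 0.999 and an exact permutation p of 0.0571. It kept an unadjusted p under 0.05 when any 1 library was left out, at -1.61 to -1.19. The only portal liver inside the arterial range was portal infusion 1. None of the other 7 members was under an unadjusted p of 0.05, which 2.4% of all genes were, and RETN stood at 1.13 (SE 1.21), a value that turned to -1.69 without arterial infusion 1.

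**Figure D2:**
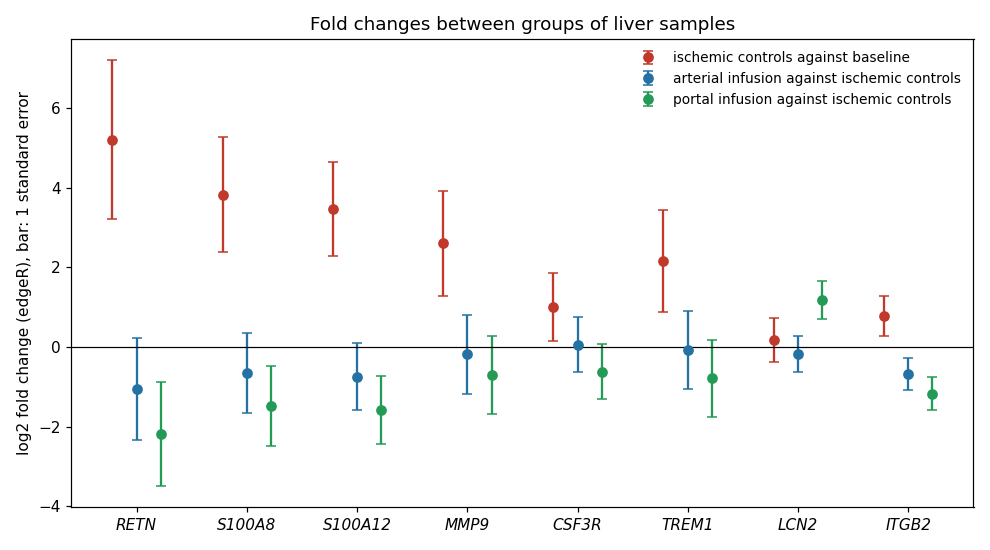
Log2 fold changes from edgeR (vertical axis) for 8 genes, with bars of 1 standard error, for ischemic controls against baseline and for each infusion route against the same ischemic controls. The values range from 5.20 for RETN to 0.17 for LCN2 in the comparison with baseline, and the portal value of LCN2, at 1.18, is the only one clearly above 0 against the controls.

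Whether RETN followed the neutrophil genes was asked liver by liver over the 11 livers at 6 h. On the scale of log2(normalized count + 1), RETN was correlated with S100A8 at a Pearson r of 0.93 (permutation p = 9.0e-05) and a Spearman rho of 0.85 (p = 0.00185). It was correlated with S100A12 at r = 0.89 (p = 0.00031) and rho = 0.85 (p = 0.00186), and with TREM1 at r = 0.81 (p = 0.0029) and rho = 0.78 (p = 0.00634). MMP9 followed with r = 0.80 (p = 0.00402) and rho = 0.75 (p = 0.0111), and CSF3R with r = 0.76 (p = 0.0100) and rho = 0.66 (p = 0.0315). For LCN2 and ITGB2 no such relation was seen, at r = 0.02 (p = 0.960) with rho = -0.05 (p = 0.882) and r = 0.17 (p = 0.632) with rho = 0.31 (p = 0.357). These are 7 relations that share 1 measure of RETN, and their permutation p-values are not adjusted.

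The relations held within the groups. After subtracting the mean of each group, r was 0.94 for S100A8, 0.88 for S100A12, 0.82 for MMP9, 0.81 for TREM1 and 0.80 for CSF3R, and -0.13 for ITGB2 and 0.25 for LCN2. Leaving out the 2 livers farthest from the median of the other gene gave 0.89 for S100A8, 0.83 for S100A12, 0.89 for CSF3R, 0.80 for MMP9, 0.74 for TREM1, 0.17 for LCN2 and 0.14 for ITGB2. In the 7 livers that did not stand apart, r was 0.87 for S100A8 (exact permutation p = 0.0216), 0.85 for S100A12 (p = 0.0192) and 0.80 for TREM1 (p = 0.0440). There CSF3R at 0.71 (exact permutation p = 0.0833) and MMP9 at 0.73 (p = 0.0808) no longer passed 0.05, and ITGB2 reached 0.78 (p = 0.0498).

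**Figure D3:**
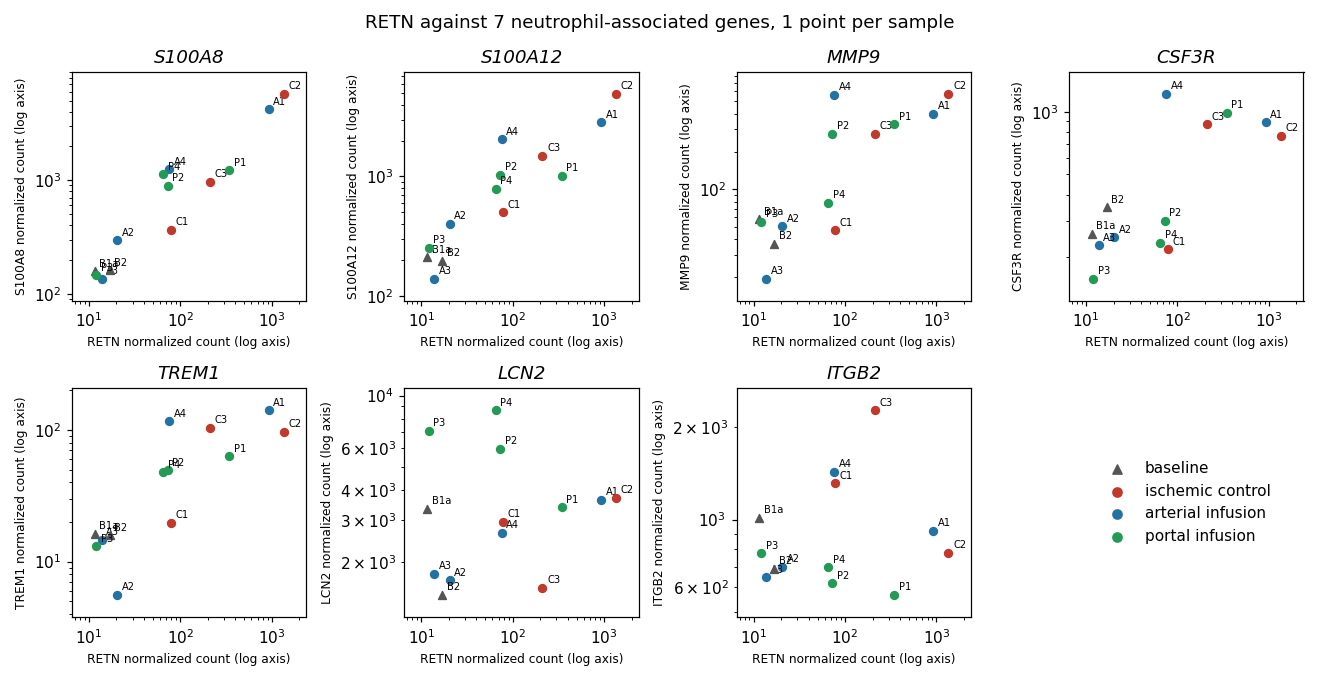
Normalized count of RETN (horizontal log axes) against that of 7 neutrophil-associated genes (vertical log axes, 1 panel each), 1 point per sample, where B is baseline, C ischemic control, A arterial and P portal infusion. The points of S100A8 and S100A12 rise along a line (r = 0.93 and 0.89 over 11 livers at 6 h), and those of LCN2 and ITGB2 are scattered (r = 0.02 and 0.17).

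The same question was put to every gene with 1 model, edgeR's quasi-likelihood test over the 11 livers with group and the log2 CPM of RETN as terms, in which 15382 genes other than RETN were tested. A slope of 1 means that a gene doubled when RETN doubled. S100A8 had a slope of 0.80 (SE 0.10, adjusted p = 0.0112) and the smallest p of all 15382 genes. S100A12 rose with RETN at 0.62 (SE 0.12, adjusted p = 0.0156), MMP9 at 0.66 (SE 0.19, adjusted p = 0.0392) and CSF3R at 0.42 (SE 0.12, adjusted p = 0.0360). TREM1, at 0.55 (SE 0.20), missed the threshold (adjusted p = 0.0814), and LCN2 at 0.07 (SE 0.09) and ITGB2 at -0.05 (SE 0.09) were near 0.

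Thus 4 of 7 members rose with RETN, where 12.9% of all genes passed, 7.04% rising and 5.9% falling. The call was sensitive to the livers and the model. With the number of genes detected as a further term no gene in the table passed, while S100A8 kept a slope of 0.82 (adjusted p = 0.0761). Without the 4 libraries that stood apart no gene passed either, and the slopes were steeper, at 1.14 for S100A8 (adjusted p = 0.0607), 1.15 for S100A12, 1.52 for MMP9 and 0.83 for CSF3R. Without arterial infusion 1 alone, 0 of the 7 passed, and without ischemic control 1 or 2, arterial infusion 2 or 3, or portal infusion 1 or 3, only S100A8 and S100A12 did. Without arterial infusion 4, TREM1 passed as well, which made 5.

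Other genes of neutrophil function that rose with RETN in this model were MMP25 at 0.49 (SE 0.15, adjusted p = 0.0486) and the oxidase subunits NCF1 at 0.43 (SE 0.09, adjusted p = 0.0197) and CYBA at 0.41 (SE 0.09, adjusted p = 0.0208). The cytokine gene CSF3, whose product acts on CSF3R, also rose, at 0.82 (SE 0.19, adjusted p = 0.0208). These genes were 1 of 7 granule genes, 2 of 5 oxidase genes and 1 of 4 cytokine genes tested. None of 6 surface receptor, 12 partner and 5 transcription factor genes passed. The count of CSF3 was highest in portal infusion 1, at 748, followed by 192 in arterial infusion 1, 147.7 in arterial infusion 4 and 116 in ischemic control 2, and was 82 or less in the other 7 livers at 6 h.

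Some markers of other cell types also passed in this model, in which 7.04% of all genes rose and 5.9% fell. Of 14 monocyte and macrophage markers only MARCO, a scavenger receptor of Kupffer cells, rose with RETN (slope 0.56, SE 0.10, adjusted p = 0.0139), and CD68 at -0.23 (SE 0.12) and CD163 at -0.34 (SE 0.11) did not pass. Of 3 erythroid genes HBB rose (0.68, SE 0.18, adjusted p = 0.0300), of 4 pan-leukocyte genes CORO1A rose (0.34, SE 0.08, adjusted p = 0.0198) while PTPRC stood at -0.34 (SE 0.13, adjusted p = 0.0856), and of 10 T and NK cell genes CD247 rose (0.27, SE 0.06, adjusted p = 0.0226). Of 9 hepatocyte genes CPS1 (-0.41, SE 0.10, adjusted p = 0.0226) and FGB (-0.40, SE 0.12, adjusted p = 0.0409) fell, and of 3 tested acute phase genes HAMP, which encodes the iron hormone hepcidin, rose (0.44, SE 0.13, adjusted p = 0.0385). Among the hepatocyte genes that did not pass, TTR at 0.27 (SE 0.11), AMBP at 0.20 (SE 0.07) and APOA1 at 0.19 (SE 0.08) had slopes above 0. ALB, SERPINA1, TF and HNF4A had slopes below 0. None of 5 tested fat cell genes passed. The part of these cells in the relation of RETN with the neutrophil genes was not tested.

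Ranked by Pearson r with RETN over the 11 livers, S100A8 was at place 8 and S100A12 at place 40 of 16480 genes, TREM1 at 365, MMP9 at 421, CSF3R at 732, ITGB2 at 6214 and LCN2 at 7529. The median r over all genes was -0.06, and 31 genes had an r above 0.9. Of the hepatocyte genes, AMBP was at place 339 and APOA1 at 687, while ALB was at 13484, CPS1 at 14755 and FGB at 15793. The 10 genes with a symbol most like RETN were NMRAL1 and PIGL (both 0.94), COTL1 (0.94), UBA1 (0.94), TOR4A (0.94), S100A8 (0.93), TMSB4X (0.93), DCAKD (0.93), MISP (0.93) and LAMP1 (0.92). These values are descriptions over 11 livers that share the difference between libraries that stood apart and the others.

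A close correlation does not say whether the proportion of RETN to a neutrophil gene was the same in every group, so the ratio was taken in each liver. Library scaling cancels in it. For every 100 counts of S100A8 there were 7.32 and 10.5 counts of RETN at baseline. There were 21.5, 23.5 and 21.8 in ischemic controls 1 to 3, although the S100A8 level of these livers differed 15.8-fold. After arterial infusion there were 21.9, 6.88, 10.2 and 6.06, and after portal infusion 28.3, 8.12, 8.28 and 5.74. Arterial infusion 1 and portal infusion 1 were thus at or above the controls, and the other 6 infused livers lay between 5.74 and 10.2, below the controls, 3 of them (5.74, 6.06 and 6.88) below both baseline samples. Portal infusion 4, which stood apart as a library, was the lowest.

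The log2 ratio of RETN to S100A8 was -2.16 ± 0.06 (SD, n = 3) in controls and -3.28 ± 0.84 (SD, n = 8) in infused livers, a difference of -1.12 that did not pass 0.05 (exact permutation p = 0.0909, two-sided). Without arterial infusion 1 it was -1.27 (exact permutation p = 0.0417), without portal infusion 1 it was -1.33 (p = 0.0250), and without portal infusion 4 it was -1.0 (p = 0.133). Arterial infusion 1 and portal infusion 1 had the highest ratios of the infused livers, so leaving out either had to widen the difference. These single removals were added after seeing the data, and their p-values are descriptions. Among the 7 livers that did not stand apart, 2 controls and 5 infused, the difference was -1.43 (exact permutation p = 0.0476, the smallest possible). That set lacks both of these livers too, so its p-value does not replace the one over all livers. Against S100A12 the difference was -0.93 (exact permutation p = 0.230), against MMP9 -1.48 (p = 0.127), against TREM1 -1.37 (p = 0.145), against CSF3R -1.66 (p = 0.103), against LCN2 -2.58 (p = 0.109) and against ITGB2 -1.25 (p = 0.455). All 7 ratios share the RETN value of the liver, all were lower in infused livers on average, and none passed. Among the 7 livers that did not stand apart the differences against S100A12, at -1.32, and MMP9, at -1.89, also had an exact permutation p of 0.0476. This is again the smallest possible, in a set without arterial infusion 1 and portal infusion 1. Without ischemic control 2 the differences were smaller, at -0.64 against S100A12 (exact permutation p = 0.511), -1.12 against MMP9 (p = 0.333), -0.60 against TREM1 (p = 0.556), -0.80 against CSF3R (p = 0.378) and -1.71 against LCN2 (p = 0.311), and that against ITGB2 turned to 0.26 (p = 0.911).

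From baseline to the controls the log2 ratio of RETN was higher on average by 1.26 against S100A8, 1.32 against S100A12 and 3.43 against CSF3R, and for all 7 genes every control was above both baseline samples. All 7 ratios share the RETN count, which by itself separated every control from both baseline samples. The 7 are therefore not separate findings, and how often RETN over any other gene separates these groups was not tested. The exact permutation p was 0.1 or 0.2, where 0.1 is the smallest that 3 against 2 samples allow. RETN rested on 15 and 16 reads in the baseline samples, so these ratios carry a large counting error.

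**Figure D4:**
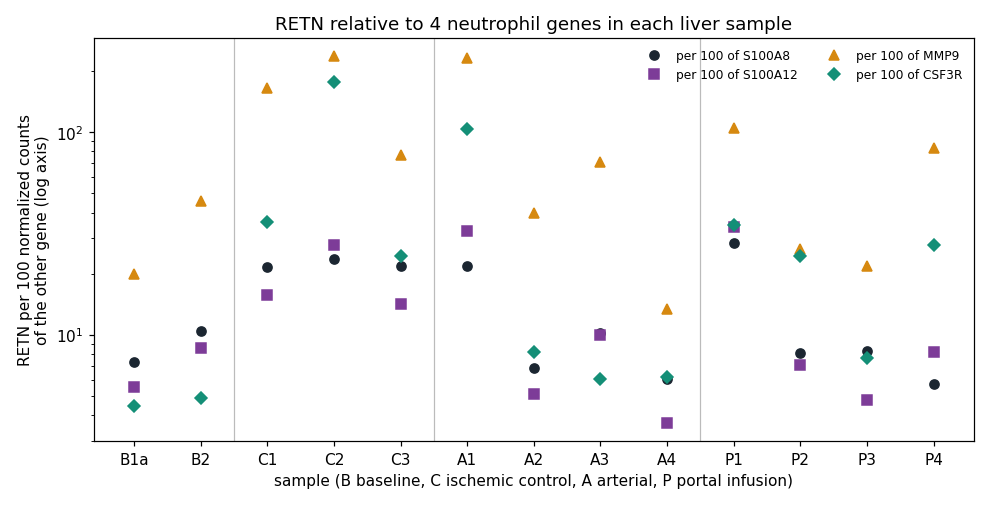
RETN per 100 normalized counts of S100A8, S100A12, MMP9 or CSF3R (vertical log axis) in each of 13 liver samples (horizontal axis, B baseline, C ischemic control, A arterial and P portal infusion). For S100A8 the 3 controls lie at 21.5 to 23.5, together with arterial infusion 1 and portal infusion 1, and the other 6 infused livers at 5.74 to 10.2.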

How the data were processed

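RNA of 13 pig liver samples was sequenced after poly-T selection as non-directional paired-end libraries. The deposited raw counts were made by the authors with HISAT2 (mapping to Sscrofa11.1) and FeatureCounts (Ensembl annotation), without normalization. Groups come from the sample labels, and 0 columns were left without a sample. Total counts lay between 18975413 and 35949178, and a count of few reads carries their counting error. Libraries of 1 group were no copies of each other (chi-square per gene at least 72.1), and p-values measure the spread between these samples.

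Tests used edgeR 4.0.16 in R 4.3.3 (filterByExpr, TMM, quasi-likelihood test, Benjamini-Hochberg adjustment over all genes tested, threshold 0.05), with all 13 libraries in 1 fit, or, for slopes on RETN (log2 CPM, prior count 1), the 11 livers at 6 h. DESeq2 1.42.0 gave size factors and an alternative test. Permutation tests used numpy 2.4.6, with a pseudocount of 1, 100000 resamples for 11 livers and all orders otherwise. Scripts were tested on simulated data. The genes and lists were chosen with earlier results of these data known. Named beside the members were the 10 symbols most like RETN, per list the genes under the threshold or else the 3 with the largest difference between controls and baseline, and defining cell markers. Alternatives were other scalings, filters, DESeq2, a replicate block and libraries left out. Ratios without single livers, and the comparison with baseline without ischemic control 2 in DESeq2 or with no filter, and listed genes without that liver, were added after seeing the data.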

Additional observations from a re-analysis of the deposited data

Results flagged for a closer look

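In the arterial infusion group RETN in arterial infusion 1 lay far from the others, at 923 normalized counts against 13.8 to 75.4 in the other 3 livers, a gap of 0.932 of the range of the group. Only the 2 groups of 4 livers could be examined in this way, with 8 genes each. For normally distributed values chance alone flags about 1 in 20 of the 16 cases. The gap was taken on normalized counts without a log, which are skewed here, so that rate need not hold. It was not taken on the log2 scale. S100A8 in the same liver was 4216 against 135 to 1246 in the other 3, which was not far enough to be singled out.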

How the results depend on the processing

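Depth limits TREM1 and RETN most, with 6 to 18 and 12 to 22 reads in the lowest 3 livers at 6 h, and the groups hold only 2 to 4 samples. The count of members past the adjusted threshold was 0 in the 5 group comparisons under all alternatives, except for controls against baseline, where it was 3 with DESeq2 over the libraries compared, 3 with no filter on low counts (30 genes in all), 3 with that DESeq2 test without ischemic control 2, and 0 with no filter and without that library. For the slope on RETN it was 4, and became 2 without the group term, 0 with genes detected added, 0 with the replicate number as a block (S100A8 slope 0.81, adjusted p = 0.118) and 0 without the 4 libraries that stood apart, and 0 to 5 with 1 liver left out. The replicate numbers did not pair the livers, since same-numbered livers of different groups correlated at -0.38 to 0.40, 5 of 16 pairs above 0.1. Among the arterial and portal pairs, 1 to 3 correlated at 0.39, 0.26 and 0.40 but 4 at -0.11, and pairing was taken to need over 0.1 in every pair. The block changed no call in the group comparisons. The causes were not tested.

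Under that block CSF3R in arterial infusion against controls turned to -0.55 and the ITGB2 slope to 0.0022. Without the 4 libraries that stood apart, LCN2 in controls against baseline turned to -0.078, MMP9 against controls to 0.20 in infused, 0.36 in arterial and 0.053 in portal livers, RETN in arterial against portal infusion to -0.26, the slopes of LCN2 and ITGB2 to -0.012 and 0.24, and r of LCN2 with RETN to -0.21. LCN2 in controls against baseline was -0.074 in DESeq2 and -0.070 with no filter, both without ischemic control 2. Without the group term the slopes were -0.063 for LCN2 and 0.062 for ITGB2, and with genes detected added that of ITGB2 was 0.041. The r of LCN2 was -0.026 on log2 CPM and that of ITGB2 -0.13 with group means subtracted.

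With 1 library left out, infused livers against controls ranged from -3.04 to 0.22 for RETN, -1.78 to 0.68 for S100A8, -0.67 to 0.0016 for CSF3R and -0.95 to 0.37 for MMP9. Arterial infusion against controls ranged from -3.88 to 0.79 for RETN, -2.06 to 1.10 for S100A8, -1.41 to 0.39 for S100A12, -0.44 to 0.36 for CSF3R, -0.92 to 0.63 for MMP9, -0.48 to 0.074 for LCN2 and -0.70 to 0.31 for TREM1. Portal infusion ranged from -1.99 to 0.26 for S100A8 and -1.21 to 0.10 for MMP9. Arterial against portal ranged from -1.69 to 2.35 for RETN, -0.57 to 1.21 for S100A8 and -0.21 to 0.90 for MMP9. LCN2 in controls against baseline ranged from -0.35 to 0.92, its slope from -0.011 to 0.14 and its r from -0.15 to 0.25, the ITGB2 slope from -0.095 to 0.018, and RETN relative to ITGB2 from -2.16 to 0.26.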

Other observations

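The summed platelet markers were 1372 normalized counts in portal infusion 1 and 945 in portal infusion 4, against 189 to 506 in the other 11 libraries, 3 of 5 listed genes having a row. The summed stellate and stromal markers ranged from 4971 to 31580 in the controls, from 3608 to 22629 after arterial and from 2297 to 7944 after portal infusion.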
